A study of Homo sapiens with 10 samples.

Results

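Where induced, FLAG-tagged RCOR2 and endogenous RCOR1 lie on the genome of Kelly cells was compared through the peak lists of 4 of the study's 10 chromatin immunoprecipitation sequencing (ChIP-seq) libraries, 2 for each protein. Peaks of the 4 lists on chromosomes 1 to 22 and X were merged into 116008 regions wherever they shared at least 1 bp. A region with a peak of both induced RCOR2 libraries and of neither RCOR1 library is called RCOR2-only. A region with a peak of all 4 libraries is called shared, and a region with a peak of both RCOR1 libraries and of neither induced RCOR2 library is called RCOR1-only. There were 18102 RCOR2-only regions (15.6% of all merged regions), 9295 shared regions (8.01%) and 2696 RCOR1-only regions (2.32%). The other 85915 regions held a peak of a single library or of an uneven mixture of libraries.

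Kelly is an established neuroblastoma line of the adrenergic type with amplified MYCN. Induced RCOR2 came from cells that had received 2 µg/mL doxycycline for 48 h and was precipitated through its FLAG tag. The uninduced FLAG libraries were taken with the same antibody from cells of this tagged design that had not received doxycycline. RCOR1 and RCOR3 were precipitated with antibodies to the proteins themselves from untreated Kelly cells. LSD1 (gene KDM1A) was measured in another, untreated Kelly derivative that carries a doxycycline-driven shRNA against RUNX1T1. The tagged RCOR2 was thus an added, induced protein read through another antibody than RCOR1, so protein, dose, drug and antibody cannot be told apart in any contrast of RCOR2 with RCOR1. The labels name no clone for the tagged cells and do not say whether the libraries of a group came from separate cultures.

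RCOR1, RCOR2 and RCOR3 are paralogous scaffold proteins of the CoREST complex. They hold the histone H3 demethylase LSD1 and the deacetylases HDAC1 and HDAC2 together and bring them to chromatin, where the complex is known mainly as a repressor, for example of neuronal genes bound by the repressor REST. In adrenergic neuroblastoma a small circuit of transcription factors, among them HAND2 and GATA3, keeps cell identity.

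The 3 classes lay on promoters of different base composition, shown here by the RefSeq sequences (GRCh38.p14) from 250 bases before to 50 bases after the start of transcription. GNPTG (chr16:1351681-1351980, plus strand), a subunit of the enzyme that marks lysosomal proteins for sorting, and RNF123 (chr3:49689307-49689606, plus strand), a ubiquitin ligase, stand for the strongest RCOR2-only regions. HES1 (chr3:194135898-194136197, plus strand), a Notch-responsive repressor, and PICALM (chr11:86069035-86069334, minus strand), a clathrin assembly protein, stand for the strongest shared regions. None of the 8 strongest RCOR1-only regions at gene ends reached such a window, so the next ones in rank that did are shown, SH2D4B (chr10:80537652-80537951, plus strand), an adaptor protein, and CAMK1G (chr1:209583464-209583763, plus strand), a calmodulin-dependent kinase. The CAMK1G region began at position 209583744, so only the last bases of that window lay inside it, and the capitals there lay outside. Capitals mark matches to the short motifs named after the sequences, on either strand.
GNPTG: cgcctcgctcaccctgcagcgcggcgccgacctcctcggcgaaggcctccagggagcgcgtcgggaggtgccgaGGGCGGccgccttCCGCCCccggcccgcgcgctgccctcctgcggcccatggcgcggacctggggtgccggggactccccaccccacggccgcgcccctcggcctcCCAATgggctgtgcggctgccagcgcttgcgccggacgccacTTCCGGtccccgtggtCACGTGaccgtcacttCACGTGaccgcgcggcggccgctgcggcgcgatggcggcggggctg
RNF123: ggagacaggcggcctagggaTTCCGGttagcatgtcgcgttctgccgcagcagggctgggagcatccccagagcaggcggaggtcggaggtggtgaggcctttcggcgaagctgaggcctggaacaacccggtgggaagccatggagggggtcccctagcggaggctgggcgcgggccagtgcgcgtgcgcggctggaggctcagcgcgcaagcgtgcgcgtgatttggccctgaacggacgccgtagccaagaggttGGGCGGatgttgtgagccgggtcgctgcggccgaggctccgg
HES1: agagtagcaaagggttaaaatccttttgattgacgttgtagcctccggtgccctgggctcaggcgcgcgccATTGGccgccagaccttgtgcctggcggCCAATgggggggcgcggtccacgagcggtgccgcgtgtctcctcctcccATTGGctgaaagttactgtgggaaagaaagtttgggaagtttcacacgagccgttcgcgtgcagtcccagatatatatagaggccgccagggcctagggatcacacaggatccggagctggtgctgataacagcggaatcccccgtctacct
PICALM: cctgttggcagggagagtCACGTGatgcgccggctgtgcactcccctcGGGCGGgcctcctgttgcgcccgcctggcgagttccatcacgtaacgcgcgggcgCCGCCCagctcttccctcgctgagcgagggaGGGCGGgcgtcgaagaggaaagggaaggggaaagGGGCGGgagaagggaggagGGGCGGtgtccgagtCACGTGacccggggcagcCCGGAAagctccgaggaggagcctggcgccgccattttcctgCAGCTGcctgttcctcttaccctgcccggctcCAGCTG
SH2D4B: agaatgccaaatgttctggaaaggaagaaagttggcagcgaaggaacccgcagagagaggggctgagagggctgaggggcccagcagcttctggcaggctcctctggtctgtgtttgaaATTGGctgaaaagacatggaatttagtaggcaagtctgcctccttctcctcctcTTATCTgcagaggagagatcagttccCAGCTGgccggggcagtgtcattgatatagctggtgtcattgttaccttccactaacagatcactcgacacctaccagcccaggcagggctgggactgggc
CAMK1G: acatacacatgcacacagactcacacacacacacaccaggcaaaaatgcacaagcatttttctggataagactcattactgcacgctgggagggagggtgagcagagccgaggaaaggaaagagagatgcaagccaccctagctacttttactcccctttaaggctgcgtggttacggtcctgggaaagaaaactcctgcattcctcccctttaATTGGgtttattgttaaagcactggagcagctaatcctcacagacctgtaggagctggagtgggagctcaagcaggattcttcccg

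These sequences can be read against all 22132 such windows of 15812 protein-coding genes. The window of GNPTG holds 47 CpG pairs and that of RNF123 31, while HES1 holds 21 and PICALM 29. SH2D4B and CAMK1G hold 4 and 5. The same order held over the classes: the median window had 30 CpG pairs among the 2917 that overlapped an RCOR2-only region, 28 among the 6349 with a shared region, and 6 among the 32 with an RCOR1-only region, against 21 over all windows. The median GC content was 71.0%, 67.3% and 51.0% in these 3 sets, and 62.3% over all windows. Only 32 windows stand behind the RCOR1-only values.

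The motifs were searched on both strands. The GC box (GGGCGG), which Sp1-type factors recognise, was in 80.7% of windows with an RCOR2-only region, 77.0% of those with a shared region, 15.6% of those with an RCOR1-only region and 56.3% of all windows. The ETS core (CCGGAA) was in 19.1%, 30.8%, 9.38% and 21.1% of the same 4 sets. The GATA core (AGATAA) was in 2.40%, 3.67%, 21.9% and 7.88% of them. The box CCAAT was found in 26.2% of windows with an RCOR2-only region, 34.9% of those with a shared region, 37.5% of those with an RCOR1-only region and 34.6% of all windows. In the same order of RCOR2-only, shared, RCOR1-only and all windows, the TATA box (TATAAA) was in 4.29%, 3.84%, 12.5% and 9.46%, and the NRF1 core (TGCGCA) in 9.80%, 15.6%, 3.12% and 9.89%. An E-box (CACGTG) was in 8.74%, 11.3%, 6.25% and 8.34%, and a second E-box (CAGCTG) in 17.6%, 16.3%, 31.2% and 18.0%. The CRE (TGACGTCA) was in 2.09%, 3.89%, 0% and 2.26%, and the first part of the REST site (TTCAGCACC) in 0.240%, 0.268%, 0% and 0.352%. With 32 windows, a count of 0 in the RCOR1-only set allows a share of up to 9.38%. None of these motifs lies wholly within another, and a match describes letters in the window only.

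The libraries differed in how many peaks they gave. The peaks used numbered 75643 and 59726 for induced RCOR2, against 49250 and 18297 for RCOR1. The LSD1 lists held 19392 and 19667 peaks, the RCOR3 lists 13644 and 27786, and the uninduced FLAG lists 10253 and 14958. The second RCOR1 library thus gave the shortest list of the 4 compared, and the class sizes move with it. Read counts were not used, so the depth behind the lists is unknown. A class states where peaks were called and not where a protein was absent.

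**Figure D1:**
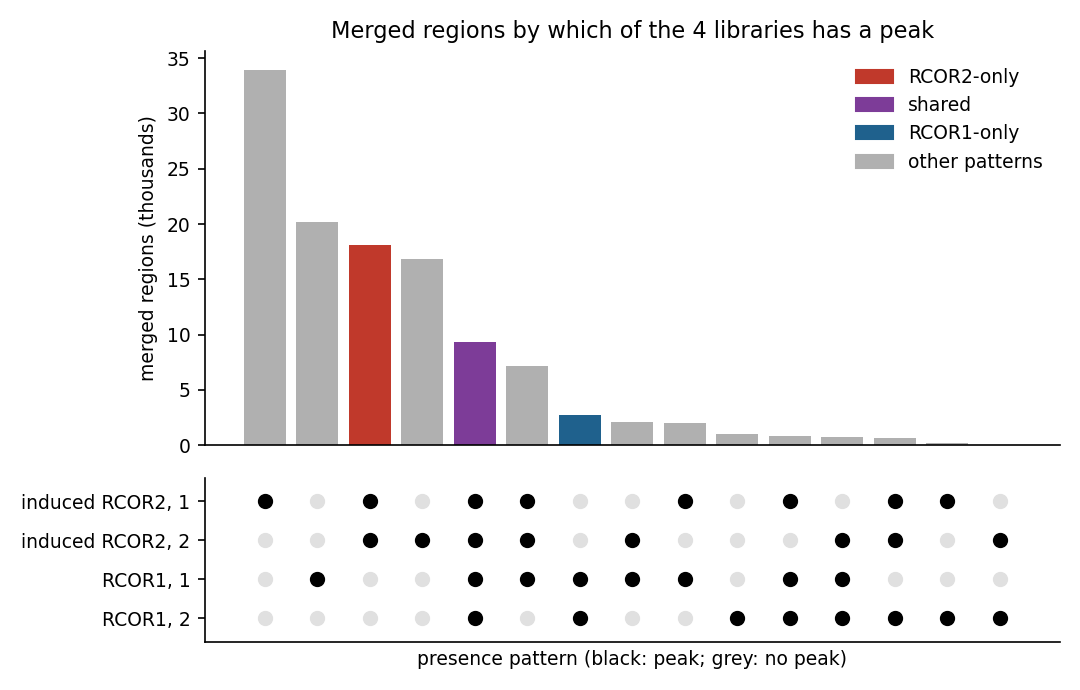
Number of merged regions in each of the 15 presence patterns over the 2 induced RCOR2 and 2 RCOR1 libraries, with the 3 classes in colour. The RCOR2-only class holds 18102 regions, the shared class 9295 and the RCOR1-only class 2696, while the 3 most frequent single-library patterns hold 33965, 20152 and 16881.

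Most regions outside the classes were seen in 1 library. The first induced RCOR2 library alone gave 33965 regions and the second alone 16881. The first RCOR1 library alone gave 20152, whereas the second RCOR1 library alone gave 1025. A further 7181 regions had a peak of both induced RCOR2 libraries and of the first RCOR1 library. Those resembled the shared class in position, with 57.2% at gene ends, but 5.22% of them carried a peak of both LSD1 libraries, against 21.6% of shared regions.

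RCOR2-only and shared regions lay at gene ends far more often than RCOR1-only regions. A gene end is taken as 2 kb either side of either end of the 19974 protein-coding genes. The share at gene ends was 30.3% for RCOR2-only regions (95% Wilson interval 29.6 to 30.9), 58.4% for shared regions (57.4 to 59.4) and 5.45% for RCOR1-only regions (4.66 to 6.37). RCOR2-only exceeded RCOR1-only by 24.8 percentage points (95% Newcombe interval 23.7 to 25.9). These intervals cover counting error only. Without the second induced library the difference was 11.4 points.

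The same direction appeared in each of the 4 pairings of a single induced RCOR2 library with a single RCOR1 library. The difference was 7.21 and 14.1 points with the first induced library, and 12.3 and 22.2 points with the second. Restricted to starts of transcription, the shares were 20.1%, 51.1% and 3.45% for RCOR2-only, shared and RCOR1-only regions. RCOR1-only regions lay inside a gene but away from its ends in 44.5% of cases and between genes in 50%, while RCOR2-only regions did so in 33.1% and 36.6%. The median distance to the nearest gene end was 9824 bp for RCOR2-only regions, 0 bp for shared regions and 48326 bp for RCOR1-only regions.

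Whole peak lists did not show this difference between the proteins. Peaks at gene ends made up 28.1% and 33.7% of the induced RCOR2 lists, against 31.9% and 40.01% of the RCOR1 lists, and the ranges overlapped. Induced RCOR2 averaged 30.9% ± 3.96 and RCOR1 36.0% ± 5.72 (SD, n = 2 each), and the averages differed by -5.05 points (exact permutation test, two-sided, p = 0.667). With 2 libraries against 2 the smallest p this test allows is 0.3333. Among equal numbers of the strongest peaks of each list, 54.1% and 59.99% of induced RCOR2 peaks lay at gene ends, against 34.2% and 40.01% of RCOR1 peaks, so the direction turned and the difference became 19.95 points (exact permutation test, two-sided, p = 0.3333).

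RCOR1-only regions mostly carried LSD1, and RCOR2-only regions almost never did. The first LSD1 library had a peak in 0.243% of RCOR2-only regions, 28.9% of shared regions and 72.0% of RCOR1-only regions. The second had one in 0.304%, 23.5% and 74.5% of them. Both LSD1 libraries had a peak in 18 of 18102 RCOR2-only regions, 2011 of 9295 shared regions and 1836 of 2696 RCOR1-only regions. The share with both was 0.0994% for RCOR2-only regions (0.0629 to 0.157), 21.6% for shared regions (20.8 to 22.5) and 68.1% for RCOR1-only regions (66.3 to 69.8). RCOR2-only minus RCOR1-only was -68.0 points (-69.7 to -66.2).

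**Figure D2:**
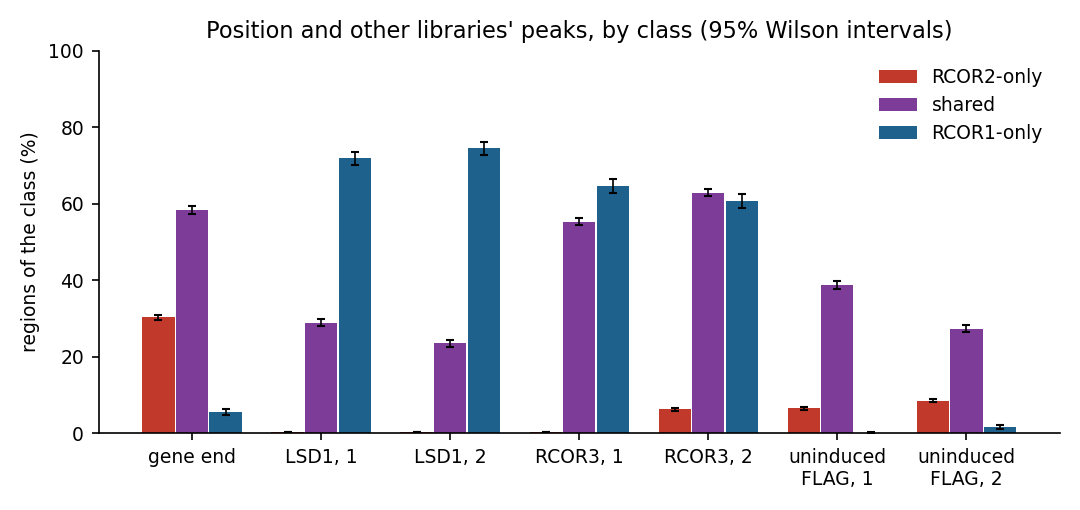
Percent of regions of each class at a gene end and with a peak of each LSD1, RCOR3 and uninduced FLAG library, with 95% Wilson intervals. LSD1 library 1 marks 0.243% of RCOR2-only, 28.9% of shared and 72.0% of RCOR1-only regions.

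The split was present both at gene ends and away from them. At gene ends, a peak of both LSD1 libraries was in 0 of 5480 RCOR2-only regions, which allows a share of up to 0.0547%, in 6.69% of 5429 shared regions and in 42.2% of 147 RCOR1-only regions. Away from gene ends the shares were 0.143%, 42.6% and 69.6%. In the 4 pairings of single libraries the difference between RCOR2-only and RCOR1-only regions was -26.6 and -49.7 points with the first induced library, and -26.5 and -48.1 points with the second. Without the second RCOR1 library the difference was -26.4 points. The LSD1 libraries came from another Kelly derivative, and the part of this in the result was not tested.

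RCOR3, the remaining paralogue, followed RCOR1 at these regions. The first RCOR3 library had a peak in 0.309% of RCOR2-only, 55.3% of shared and 64.7% of RCOR1-only regions. The second, longer RCOR3 list had one in 6.25%, 62.9% and 60.8% of them. Both RCOR3 libraries had a peak in 0.122% of RCOR2-only regions (0.0803 to 0.184), 41.8% of shared regions (40.8 to 42.8) and 46.7% of RCOR1-only regions (44.8 to 48.5). RCOR2-only minus RCOR1-only was -46.5 points (-48.4 to -44.7), and -7.28 points without the second RCOR1 library. Shared minus RCOR1-only was small by comparison over all regions, at -4.82 points (-6.96 to -2.69), and its sign differed between the 2 RCOR3 libraries. Split by position its sign turned. It was 1.02 points (-6.97 to 8.07) at gene ends and 7.68 points (5.18 to 10.2) away from them.

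Seen from the other proteins, RCOR2-only regions were again the rarest class, while shared regions were more frequent than RCOR1-only regions. The classes hold 9295 shared and 2696 RCOR1-only regions, and these shares are not scaled to class size. Of the 12694 LSD1 regions found in both libraries, 0.158% overlapped an RCOR2-only region, 17.8% a shared region and 14.8% an RCOR1-only region, and 14.7% overlapped no peak of either protein. Of 7175 such RCOR3 regions, 0.348% overlapped an RCOR2-only region, 52.9% a shared region and 17.4% an RCOR1-only region. Only 0.348% of RCOR3 regions overlapped no peak of induced RCOR2 or RCOR1.

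The FLAG antibody also gave peaks without doxycycline, and shared regions held one more often than the other 2 classes did. Unspecific signal of the antibody and tagged RCOR2 made without doxycycline cannot be told apart in these libraries. The first uninduced library had a peak in 6.45% of RCOR2-only, 38.7% of shared and 0.111% of RCOR1-only regions, and the second in 8.44%, 27.3% and 1.59%. A peak of either was in 11.7% of RCOR2-only regions (11.3 to 12.2), 50.7% of shared regions (49.7 to 51.7) and 1.63% of RCOR1-only regions (1.22 to 2.18). RCOR2-only minus RCOR1-only was 10.1 points (9.38 to 10.7), and 1.97 points without the first induced library. Without every region that held an uninduced peak, the difference between RCOR2-only and RCOR1-only regions was 26.1 points for gene ends, -68.2 points for LSD1 and -46.8 points for RCOR3. The shared class shrank to 4584 regions in that setting.

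Within the induced RCOR2 libraries, shared regions were the strong ones. The fold enrichment used here is the authors' own value of each peak over local background, taken for the strongest peak in a region and compared only within a list. In the first induced library the median was 14.7 at shared regions and 6.64 at RCOR2-only regions. In the second it was 23.4 at shared and 7.44 at RCOR2-only regions. The ratio of shared to RCOR2-only was 2.21 and 3.14, with a mean of 2.68 ± 0.661 (SD, n = 2). The mean ratio was 1.51 when every library was cut to the same number of its top peaks. At gene ends alone the shared medians were 17.4 and 34.0, against 6.87 and 9.70 at RCOR2-only regions. Shared regions were also wider, with a median of 1237 bp, against 530 bp for RCOR2-only and 564 bp for RCOR1-only regions. The part of width in the contrasts with shared regions was not tested.

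RCOR1 showed no such gap. Its first library had a median fold of 7.38 at shared regions and 7.72 at RCOR1-only regions, and its second had 5.78 at shared and 5.30 at RCOR1-only regions. The ratio of shared to RCOR1-only was 0.957 and 1.09, with a mean of 1.02 ± 0.0937 (SD, n = 2). Over all regions the libraries thus lay on opposite sides of 1. Split by position, the shared medians were slightly higher in both libraries. At gene ends they were 7.04 and 5.69, against 6.74 and 4.96 at RCOR1-only regions. Away from gene ends they were 8.15 and 5.79, against 7.76 and 5.33. No test was run on these ratios, since folds were compared only within each list.

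**Figure D3:**
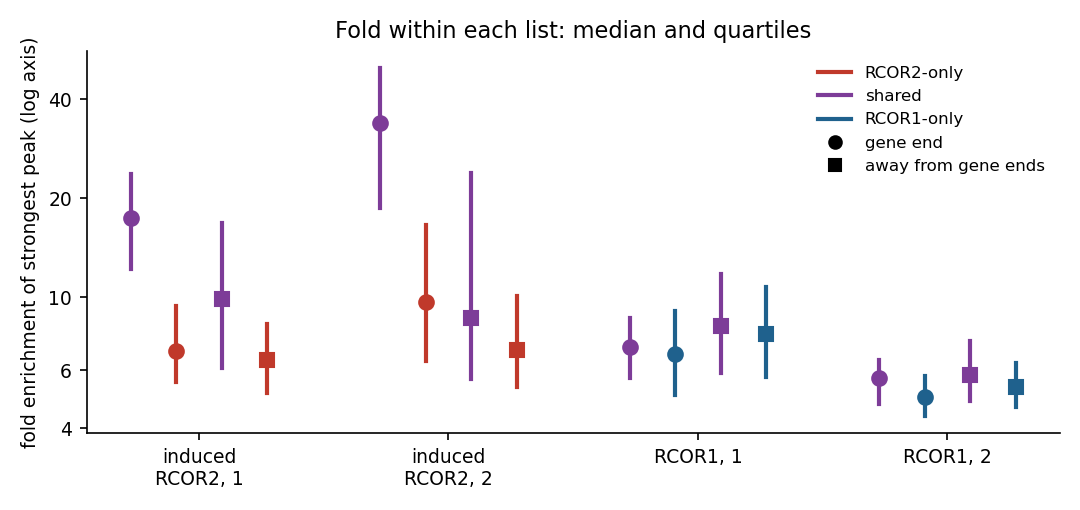
Authors' fold enrichment of the strongest peak per region (log axis) in each of the 4 libraries, for shared regions and for regions of that protein alone, as medians with lower and upper quartiles. Shared regions have medians of 14.7 and 23.4 in the induced RCOR2 libraries, against 6.64 and 7.44 for RCOR2-only regions, while the RCOR1 medians lie close together.

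Regions with a peak of both induced RCOR2 libraries were then split into 4 bands of equal size by rank, using the lower of their 2 percentile ranks of the authors' q-value score. From the weakest to the strongest band, the share of shared regions was 11.3%, 14.1%, 23.4% and 56.6%. The RCOR2-only share over the same bands was 72.5%, 68.7%, 50.4% and 13.8%. Strong induced RCOR2 regions were therefore mostly also RCOR1 regions, and the RCOR2-only class was drawn mostly from the weaker bands.

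Gene ends became more frequent with strength in both classes. From the weakest to the strongest band, 16.5%, 24.6%, 53.8% and 77.1% of shared regions lay at gene ends. For RCOR2-only regions the shares were 24.1%, 25.4%, 38.0% and 58.4%. LSD1 went the other way in shared regions, where both LSD1 libraries had a peak in 61.1%, 52.4%, 21.4% and 6.18% over the bands. In RCOR2-only regions LSD1 was at or below 0.203% in every band, so its scarcity there was not limited to weak regions. Uninduced FLAG peaks also became more frequent with strength, at 10.0%, 23.3%, 44.9% and 68.0% of shared regions and 8.36%, 11.1%, 12.4% and 29.9% of RCOR2-only regions. Their part in the order of the bands was not tested.

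RCOR1 strength was ordered with LSD1 in the opposite sense. Regions with a peak of both RCOR1 libraries were split likewise by their RCOR1 ranks. From the weakest to the strongest band, both LSD1 libraries had a peak in 8.23%, 10.8%, 14.8% and 50.4% of shared regions. In RCOR1-only regions the shares were 57.1%, 63.7%, 73.4% and 87.3%. Both RCOR3 libraries had a peak in 28.8%, 37.5%, 53.7% and 82.6% of RCOR1-only regions over the same bands. In the strongest band, most RCOR1-only regions thus held LSD1 peaks and most held RCOR3 peaks.

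**Figure D4:**
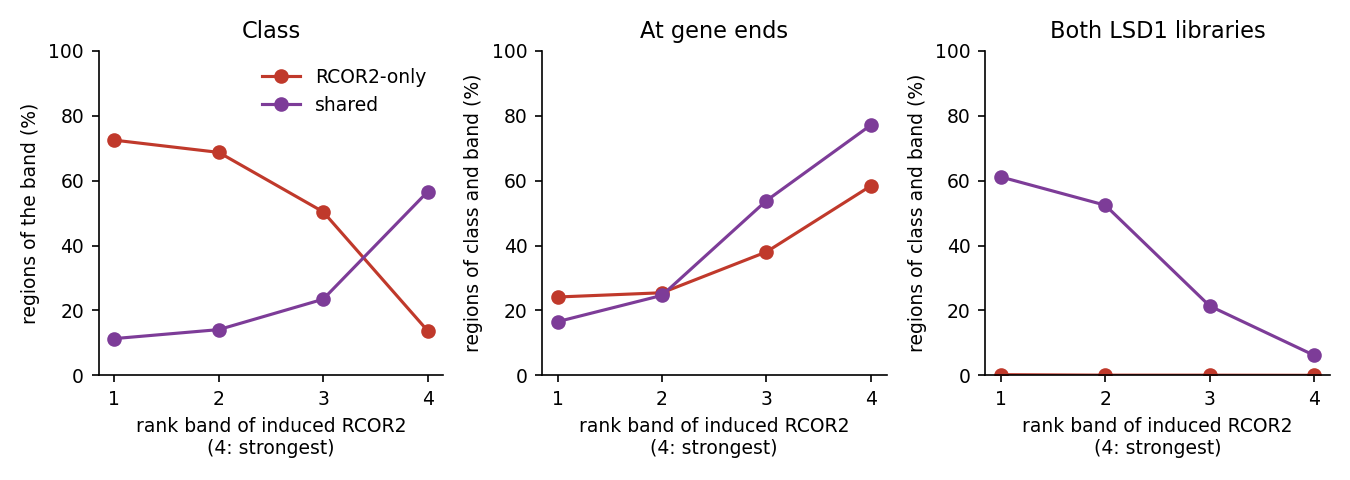
Regions with peaks of both induced RCOR2 libraries by band of rank, from 1 (weakest) to 4 (strongest), with the percent in each class, at gene ends, and with a peak of both LSD1 libraries. Shared regions make up 11.3% of the weakest and 56.6% of the strongest band, and their LSD1 share is 61.1% in the weakest and 6.18% in the strongest.

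Because list lengths differed, the classes were also built from the 18297 strongest peaks of each library by q-value score. This gave 4904 RCOR2-only, 4467 shared and 4889 RCOR1-only regions out of 35257. Gene ends held 58.6% of RCOR2-only, 72.9% of shared and 10.1% of RCOR1-only regions. Both LSD1 libraries had a peak in 0.184%, 11.3% and 74.4% of them, and both RCOR3 libraries in 1.12%, 46.4% and 61.9%. An uninduced FLAG peak was in 28.1%, 68.5% and 6.44%. The contrasts in gene ends, LSD1 and RCOR3 kept their direction. The sizes of the first and the last class were nearly equal in these lists of equal length.

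Membership moved more than the contrasts. Among all-peak RCOR2-only regions 15.2% were RCOR2-only again with equal numbers, and among RCOR1-only regions 75.1% were RCOR1-only again. Of shared regions 48.0% were shared again and 16.6% became RCOR1-only. Carried over were 2760 RCOR2-only regions, against 4904 in the new class, and 2025 RCOR1-only regions, against 4889. A further 1541 regions that overlapped the new RCOR1-only class had been shared. An only-class of equal numbers can thus hold called peaks of the other protein that fell below the cut.

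The submitters' own lists, named RCOR2-high and RCOR2-low, divided the classes unevenly. No definition of these lists was found in the sources used here. Of the 6673 RCOR2-high regions, 5.25% overlapped an RCOR2-only region, 66.7% a shared region and none an RCOR1-only region, which allows a share of up to 0.0450%. Of the 24637 RCOR2-low regions, 2.69% overlapped an RCOR2-only region, 16.3% a shared region and 9.23% an RCOR1-only region. Counted from the classes, 84.3% of RCOR1-only regions were in RCOR2-low, and 47.9% of shared regions were in RCOR2-high. RCOR2-only regions were largely in neither, with 1.93% in RCOR2-high and 3.66% in RCOR2-low.

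Chromosome 19 held 8.36% of RCOR2-only regions, 6.19% of shared regions and 1.00% of RCOR1-only regions, beside 7.26% of protein-coding genes. Around the amplified MYCN gene, within 2 Mb, lay 8 RCOR2-only, 131 shared and 17 RCOR1-only regions. The labels give MYCN as amplified, and the part of copy number in these counts was not tested. Without this interval the difference between RCOR2-only and RCOR1-only was 24.8 points for gene ends and -67.8 points for LSD1.

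Among the strongest RCOR2-only regions at gene ends, the first was at the RCOR2 gene itself. It lay at chr11:63911593-63912583, inside RCOR2 and close to the neighbouring kinase gene MARK2, with folds of 60.9 and 86.7 in the induced libraries. The uninduced FLAG libraries had folds of 6.22 and 5.66 there. Signal from the RCOR2 transgene and from the resident gene cannot be told apart at this position. Another region at both genes, inside MARK2 and 665 bp from its end, was shared, with folds of 13.9 and 23.4 in the induced libraries and 6.77 and 4.85 in the RCOR1 libraries.

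The next RCOR2-only regions lay at ordinary cellular genes. The region over the starts of GNPTG and TSR3, the second of which serves ribosomal RNA modification, had folds of 36.5 and 73.4. That at MST1 and RNF123 had 25.8 and 61.9, and that at POLR2L, an RNA polymerase subunit, and TSPAN4 had 26.0 and 60.1. SCRIB, a cell polarity gene, shared its region with the splicing gene PUF60, at folds of 35.4 and 79.7. None of these 4 regions had a peak of RCOR3 or LSD1, and those at GNPTG and RNF123 held a peak of the first uninduced FLAG library. The remaining ones in this rank lay at ZC3H3, ANKRD36C and PCMTD2, and only the one at ANKRD36C held an RCOR3 peak, in the second library. The one at ZC3H3 held a peak of the first uninduced library.

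Away from gene ends, the strongest RCOR2-only region lay 63.9 kb from PAX2, a developmental transcription factor gene, with folds of 40.5 and 72.7. A region inside PFKFB3, which regulates glycolysis, had folds of 33.7 and 80.3. Others were near ARHGEF33, IKZF3 and METRNL. None of these 5 had an LSD1 peak, while those at PFKFB3 and METRNL held a peak of the second RCOR3 library. Uninduced FLAG peaks lay at PFKFB3, IKZF3 and METRNL.

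RCOR1-only regions at gene ends were few, and most of the strongest ones carried LSD1 and RCOR3. At TFRC, the transferrin receptor gene, the RCOR1 folds were 18.6 and 8.396, the RCOR3 folds 10.5 and 9.21, and the LSD1 folds 12.6 and 17.6. At SH3TC2, a gene of Schwann cell myelination, the RCOR1 folds were 15.4 and 8.69 and the LSD1 folds 21.6 and 21.9. At LIPG, endothelial lipase, the RCOR1 folds were 15.8 and 9.98 and the LSD1 folds 10.7 and 16.8. The region at SYNGR1, a synaptic vesicle gene, had RCOR1 folds of 13.6 and 7.86 and no LSD1 peak, so LSD1 did not accompany every one. The other regions were at YPEL2, CHRNA9, CKS1B and an uncharacterised gene, LOC124900476. TFRC and CKS1B also had a shared region at an end.

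RCOR1-only regions had higher median RCOR1 folds away from gene ends, at 7.76 and 5.33, than at gene ends, at 6.74 and 4.96. The region 533 kb from CDH11, a cadherin gene, had RCOR1 folds of 30.1 and 16.3, RCOR3 folds of 17.6 and 15.7, and LSD1 folds of 31.7 and 45.1. A region within AMBRA1, an autophagy gene, had RCOR1 folds of 35.2 and 13.0 and LSD1 folds of 25.1 and 44.7. Those at SPECC1L, SLC39A11, FBXO33 and PRKAR2B also had peaks of both LSD1 and both RCOR3 libraries.

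The strongest shared regions at gene ends lay mostly at starts of transcription. At HES1 the folds were 67.7 and 69.7 in the induced RCOR2 libraries and 26.4 and 13.1 in the RCOR1 libraries. At PICALM they were 62.4 and 67.0 with induced RCOR2 and 17.8 and 14.2 with RCOR1. Further ones were at GARS1, a tRNA synthetase gene, NUCKS1, BRPF1, a scaffold of a histone acetyltransferase complex, BRD3OS and CCDC200. The remaining region lay over an end of APOLD1, whose start was within 2 kb. It was also within 2 kb of an end of CDKN1B, a cyclin-dependent kinase inhibitor gene, but not of its start. Among these strongest shared regions, those at HES1, PICALM and NUCKS1 held peaks of both LSD1 libraries. Every one except that at BRPF1 also held an uninduced FLAG peak.

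Over all 19974 protein-coding genes, an RCOR2-only region lay at an end of 5029 (25.2%), a shared region of 6390 (32.0%) and an RCOR1-only region of 157 (0.786%). Some genes had regions of more than 1 class. Those with RCOR2-only regions alone numbered 4127, those with shared regions alone 5456, and those with RCOR1-only regions alone 72 (0.360%). These percentages are the background against which the following 20 gene lists stand, and no list was tested.

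Adrenergic regulators had RCOR2-only regions at 13 of 25 genes, shared regions at 14 and RCOR1-only regions at none. PHOX2A, a factor that sets noradrenergic identity, had a shared region with folds of 30.3 and 53.2 for induced RCOR2 and 12.8 and 7.27 for RCOR1. GATA2, a partner in the same circuit, had 30.7 and 47.2 for induced RCOR2 and 8.54 and 6.29 for RCOR1. DBH, the enzyme that makes noradrenaline, was shared as well, with 22.2 and 9.57 for induced RCOR2 and 14.7 and 13.6 for RCOR1, and it also held both LSD1 peaks. Shared regions were further found at ISL1, TBX2, TBX3, HAND1, HAND2, INSM2, SOX4, ZNF536 and MYCN, among others. The one at MYCN was a merged stretch of 16964 bp at the amplified gene, with RCOR1 folds of 2.48 and 3.27. It held a peak of every library of the study, both uninduced FLAG libraries included.

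RCOR2-only regions in this list were weaker. TH, the rate-limiting enzyme of catecholamine synthesis, had folds of 16.6 and 24.99, and SATB1, a chromatin organiser, 14.9 and 33.0. INSM1 had 10.5 and 14.9, and GATA3, a member of the core circuit, 5.51 and 3.98. Over the 23 RCOR2-only regions of the list the median folds were 6.09 and 9.51 in the induced libraries. Over its 20 shared regions they were 18.5 and 22.9. A peak of both LSD1 libraries was in 5 of the 20 shared regions, the wide one at MYCN included, and in none of the 23 RCOR2-only regions. Peaks hold no expression, so the adrenergic label of the cells could not be checked by level.

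Genes of mesenchymal-state neuroblastoma had RCOR2-only regions at 9 of 24 and shared regions at 8. FOSL2, an AP-1 factor, had a shared region with folds of 19.9 and 62.4 for induced RCOR2 and 9.74 and 7.29 for RCOR1.

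The next list joined genes of the LSD1-CoREST complex with genes of factors that work with it. RCOR2-only regions lay at 6 of 19 genes (31.6%) and shared regions at 10 (52.6%), beside 25.2% and 32.0% of all genes. The RCOR3 gene had a shared region with folds of 78.6 and 96.5 for induced RCOR2 and 12.9 and 6.20 for RCOR1. KDM1A, which encodes LSD1, had 24.9 and 74.4 for induced RCOR2 and 8.72 and 7.35 for RCOR1. HDAC1 had 23.7 and 41.7 for induced RCOR2 and 8.88 and 5.62 for RCOR1. Shared regions also lay at PHF21A, RUNX1T1, CTBP2, ZMYM2, HMG20B, GFI1B and RCOR2, and RCOR2-only regions at CTBP1, GSE1, GFI1, GFI1B, RREB1 and RCOR2. The region counted for ZMYM2 lay over an end of the neighbouring gene ZMYM5.

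REST target genes, which encode synaptic and secretory proteins, had RCOR2-only regions at 9 of 30 and shared regions at 14. SYN1, a synaptic vesicle protein gene, had an RCOR2-only region with folds of 39.8 and 48.9. GRIN1, a glutamate receptor subunit gene, had a shared region with 21.0 and 28.7 for induced RCOR2 and 14.9 and 6.80 for RCOR1. Neurotransmitter receptor genes had RCOR2-only regions at 11 of 35 and shared regions at 8, with CHRNA7 at RCOR2-only folds of 17.7 and 39.9. Axon guidance genes had RCOR2-only regions at 10 of 40 (25%) and shared regions at 15 (37.5%), beside 25.2% and 32.0% of all genes. They had an RCOR1-only region at SLIT3, a guidance ligand gene, with RCOR1 folds of 6.37 and 5.78.

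HOX genes and clustered protocadherins had the highest RCOR2-only shares among the lists. RCOR2-only regions lay at 30 of 39 HOX genes, shared regions at 10 and RCOR1-only regions at none. The 46 distinct RCOR2-only regions had median folds of 6.00 and 7.26, and HOXD11 had the strongest by rank, with 12.7 and 28.7. HOXC4 held a shared region with folds of 78.6 and 62.7 for induced RCOR2 and 15.8 and 6.30 for RCOR1. Clustered protocadherins, cell-surface proteins of neuronal identity, had RCOR2-only regions at 42 of 53 genes and no region of the other classes. Their 45 regions had median folds of 6.64 and 8.51. Neighbouring genes share regions, and these genes have close copies, so reads may be split among them.

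With equal numbers of top peaks most of these weak regions dropped out. RCOR2-only regions then lay at 3 of 39 HOX genes and 3 of 53 clustered protocadherins, beside 16.7% of all genes, while RCOR1-only regions lay at none of either list, beside 2.92% of all genes. The counts for these lists thus depend on list length. Adrenergic regulators had RCOR2-only regions at 10 of 25 in that setting, down from 13 of 25 with all peaks. They had shared regions at 9 of 25, beside 19.9% of all genes. RCOR2-only counts did not fall in REST targets (9 of 30), the LSD1-CoREST list (6 of 19) and axon guidance genes (12 of 40). In mesenchymal-state genes the count fell to 2 of 24.

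Potassium channel genes had RCOR2-only regions at 36 of 76, shared regions at 22 and an RCOR1-only region at KCNJ6. KCNC1 had RCOR2-only folds of 14.9 and 30.3. With equal numbers of top peaks the RCOR2-only count was 12 of 76. KCNJ6, a channel opened by G proteins, had RCOR1 folds of 13.1 and 7.29 and LSD1 folds of 6.78 and 12.2.

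Splicing factors had shared regions at 25 of 30 and RCOR2-only regions at 4, and SRSF4 had shared folds of 27.4 and 68.6 for induced RCOR2 and 8.05 and 7.35 for RCOR1. Target genes of p53 had shared regions at 15 of 20 and RCOR2-only regions at 2. Cell cycle genes had shared regions at 17 of 30 and RCOR2-only regions at 4. Mitochondrial ribosomal proteins had shared regions at 47 of 77 and RCOR2-only regions at 10, and oxidative phosphorylation genes at 38 and 10 of 77. Cytosolic ribosomal proteins had shared regions at 33 of 84, RCOR2-only regions at 12 and an RCOR1-only region at RPL41.

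Replication-dependent histone genes had RCOR2-only regions at 4 of 69, shared regions at 39 and an RCOR1-only region at H4C11. These genes are near-identical in sequence and sit close together, so their 39 genes rest on 25 shared regions and their counts are uncertain. Zinc finger genes of chromosome 19 had RCOR2-only regions at 48 of 240, shared regions at 63 and an RCOR1-only region at ZNF235.

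Liver genes had an RCOR2-only region at 1 of 25 and shared regions at 3. Keratinocyte genes had RCOR2-only regions at 6 of 23 (26.1%) and no shared region, beside 25.2% and 32.0% of all genes. Antigen presentation and interferon genes had RCOR2-only regions at 2 of 22 and shared regions at 3. Across all 20 lists, no RCOR2-only region at a member carried a peak of both LSD1 libraries or of both RCOR3 libraries. Over all 5480 RCOR2-only regions at gene ends these numbered 0 and 1.

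**Figure D5:**
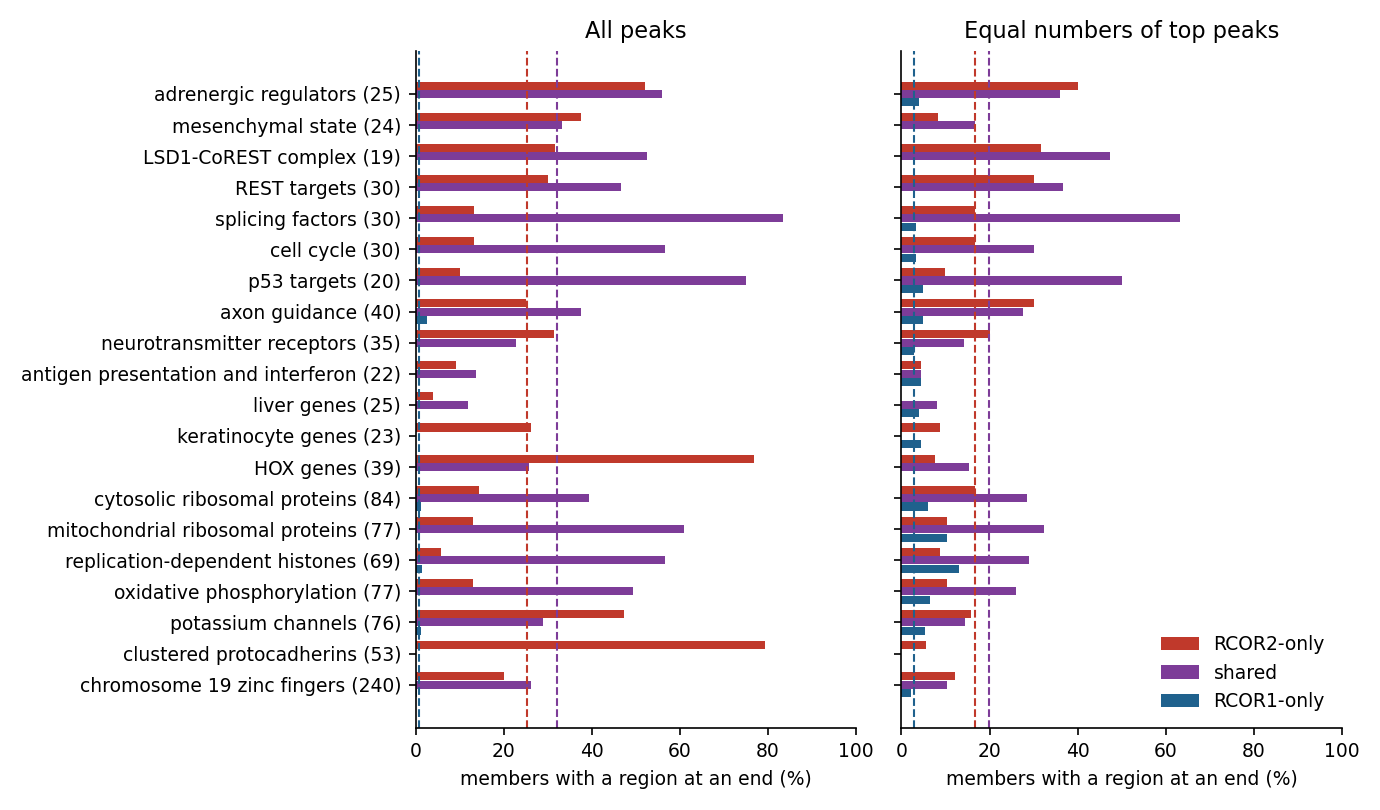
Percent of each gene list with an RCOR2-only, shared or RCOR1-only region at a gene end, from all peaks (left) and from equal numbers of top peaks (right), with dashed lines at the percent of all 19974 protein-coding genes. From all peaks, clustered protocadherins and HOX genes have the highest RCOR2-only shares, with 42 of 53 and 30 of 39 genes, and splicing factors the highest shared share, with 25 of 30.

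Beyond the lists, an RCOR1-only region lay at ALK, a receptor kinase mutated in neuroblastoma, which was picked out after its values were seen. It had RCOR1 folds of 5.36 and 6.91 and an LSD1 peak in the first library at 4.02. ALK also had a shared region at an end, so it was not an RCOR1-only gene. The same held for SLIT3, KCNJ6 and H4C11, and SH2D4B also had an RCOR2-only region at an end.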

How the data were processed

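The 10 libraries are 5 groups of 2. The submitters' processing notes name BWA 0.7.17, MACS2, deepTools and the build GRCh38. Each deposited list holds the peaks of 1 library, with the authors' fold enrichment over local background (a ratio) and the authors' −log10 q-value, whose smallest values lie near a q-value of 0.05. The sources used here do not give the authors' control library, duplicate handling or later filters. Some deposited lists use a replicate name that differs from the label, and the label's number is kept.

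Peaks on chromosomes 1 to 22 and X were merged when they shared at least 1 bp, and classes were set by which libraries had a peak. RefSeq genes and promoter windows (GRCh38.p14) were matched by symbol, and gene ends are 2 kb either side of an end of a gene. Of the named list genes, 1 keratinocyte symbol was not matched. Regions were ranked by the lowest percentile of the −log10 q-value over the libraries that define a class. Named regions are the 8 strongest at gene ends and the 6 strongest away from them per class, all occupied adrenergic regulators and LSD1-CoREST genes, and up to 3 members of each other list. Not every one is printed, and a few genes that the rule takes are not reported here. The members, classes, lists and naming rule were chosen with earlier results of these data known.

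Shares carry 95% Wilson intervals and differences 95% Newcombe intervals, which cover counting error only. Libraries were compared with an exact permutation test (two-sided). The labels do not say that replicates are separate cultures, so this p may measure technical spread. Read depth is unknown because no read counts were used. Alternatives were equal numbers of the 18297 top peaks, a q-value of 0.001, other peak widths, merge distances and gene-end windows, peaks of either library, removal of uninduced FLAG peaks or of 2 Mb around MYCN, and leaving out each library. Region classing was tested on simulated data. Python 3.11.15, numpy 2.4.6, pandas 2.3.3 and matplotlib 3.10.9 were used. Peak sequences away from promoters need a genome and were not analysed here.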

Additional observations from a re-analysis of the deposited data

How the results depend on the processing

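The difference between RCOR2-only and RCOR1-only regions kept its sign and an interval apart from 0 under all 15 alternatives for gene ends (7.26 to 48.5 points), all 18 for LSD1 (-77.9 to -25.4), all 18 for RCOR3 (-72.4 to -7.28) and all 13 for uninduced FLAG (1.97 to 21.6). Counts moved more. With equal numbers of top peaks there were 4904 RCOR2-only, 4467 shared and 4889 RCOR1-only regions at 3336, 3972 and 583 genes, the fold ratio of shared regions was 1.51 for induced RCOR2 and 0.916 for RCOR1, and the library difference in gene-end share turned to 19.95 points. With a peak of either library in place of both there were 68948, 23187 and 23873 regions at 8424, 11159 and 2416 genes, and the RCOR1 fold ratio was 1.20. Leaving out uninduced peaks left 4584 shared regions at 2634 genes. RCOR1-only genes numbered 383 with 500 bp peaks, 54 with a 500 bp window and 314 with a 5 kb window. The cause of these changes was not tested.

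Leaving out 1 library at a time, RCOR2-only regions ranged over 18801 to 53713 (genes 5337 to 9085), shared regions over 10018 to 16488 (genes 6356 to 10395) and RCOR1-only regions over 3519 to 22863 (genes 219 to 2372). Without the second RCOR1 library there were 16488 shared regions at 10395 genes and 22863 RCOR1-only regions at 2372 genes, and without the first there were 4333 RCOR1-only regions at 291 genes and 9085 RCOR2-only genes. Without the second induced library there were 53713 RCOR2-only regions at 7603 genes and 317 RCOR1-only genes, and without the first there were 37381 RCOR2-only regions. Fold ratios ranged over 2.05 to 3.45 for induced RCOR2 and 1.00 to 1.37 for RCOR1. The differences ranged over 11.4 to 31.8 points for gene ends, -67.3 to -26.4 for LSD1, -48.6 to -7.28 for RCOR3 and 1.97 to 12.5 for uninduced FLAG. The values nearest 0 came without the second induced library for gene ends, without the second RCOR1 library for LSD1 and RCOR3, and without the first induced library for uninduced FLAG. The library difference ranged over -9.09 to -1.01 points.

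Replicate numbers do not pair libraries here, since no label ties them. With a replicate block the library difference was -5.05 points (exact sign-flip test, p = 0.5), and the gene-end difference of classes built within paired numbers was 14.7 points. The settings with starts of transcription only, regions of 300 to 1000 bp, single uninduced libraries, uninduced peaks at or away from gene ends, and 1 library of the other protein allowed in a class were chosen after the data were seen. Peak lists limit all results to called peaks, and a region below a caller's threshold in 1 library leaves its class.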
